A study of Mus musculus with 8 samples.

Results

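The genes described here build and load major histocompatibility complex (MHC) class I molecules: the heavy chains H2-K1 and H2-D1, their light chain B2m, the peptide transporter subunits Tap1 and Tap2, the loading chaperone Tapbp (tapasin), the immunoproteasome subunits Psmb8, Psmb9 and Psmb10, and the trimming peptidase Erap1. They were taken by symbol from the count table, and all 10 were found among its 24883 named entries. Of these, 8 passed the filter on low counts and were tested among 12879 genes, while Psmb8 and Psmb9 had too few counts to test.

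The cells were ASZ001, a murine basal cell carcinoma (BCC) line, in 4 groups of 2 libraries. All groups received doxycycline for 24 h, which switches on the introduced vector. The control group carried an empty vector and its labels name no vehicle, and the other 3 groups carried a c-Fos vector and were then treated for 6 h with DMSO, with afatinib at 5 µM or with UO126 at 10 µM. Afatinib inhibits the EGFR family of receptor kinases, and UO126 inhibits the MEK kinases that act further down the same pathway. The control therefore differs from the DMSO group in the vector and, as far as the labels go, in the solvent, and these cannot be told apart. The labels do not say whether the replicates were separate cultures or clones, so the p-values speak to library-to-library spread alone, and part of it can be technical.

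Nucleated cells show peptides from their own proteins to CD8 T cells on class I molecules. The proteasome cuts proteins into peptides, TAP carries the peptides into the endoplasmic reticulum, Erap1 trims them, and tapasin holds the empty heavy chain and B2m beside TAP until a peptide binds. Interferon gamma induces most of these genes, in part through IRF1, and NLRC5 acts with the RFX factors at class I promoters. c-Fos pairs with Jun proteins to form AP-1.

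The libraries held between 17901974 and 23126048 counts. Fos stood at 40.6 and 50.5 CPM with the empty vector and between 813 and 1163 CPM in the 6 c-Fos libraries, so the targeted gene followed the labels. By group it was at 1163 and 1121 CPM with DMSO, 1107 and 1081 CPM with afatinib, and 813 and 875 CPM with UO126. The part of this lower Fos level in the UO126 comparisons was not tested. CPM here means counts relative to the scaled library size, the usual depth-normalised read count. All 16 keratinocyte markers were in the table, with a summed level between 22175 and 26373 CPM. Among them Krt18 had at most 1 count in a library and Krt8 had group means of 0.159 to 0.874 CPM. Endothelial markers, mostly Flt1 and Pecam1, summed to 101.4 and 110.2 CPM with the empty vector and 138.3 to 167.7 CPM with c-Fos. The sums were 44.2 to 65.2 CPM for melanocyte markers, mostly Mitf, and 5.56 to 12.1 CPM for fibroblast markers. Of 16 leukocyte markers 15 were listed, Tyrobp, Nkg7 and Adgre1 were at 0 everywhere, Ptprc had at most 4.5 counts in a library, and the sum ran from 11.04 to 12.02 CPM with the empty vector and from 13.3 to 16.1 CPM in the c-Fos groups. Cd14, at group means of 5.47 to 7.06 CPM, Cd68, at 4.83 to 5.54 CPM, and Csf1r, at 0.174 CPM with the empty vector and 1.52 to 3.70 CPM in the c-Fos groups, made up most of that sum. Their part in the results was not tested. The 2 UO126 libraries stood farther apart than other replicate pairs, at a chi-square of 25.1 per degree of freedom across genes against 4.85 to 9.17 in the other groups.

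The bases just upstream of the class I genes are shown first because the members differ there in the letters that interferon-responsive and NF-kappa-B factors are known to prefer. They come from the RefSeq promoter table for GRCm38.p6, which holds 10 windows for 9 of the 10 members and none for Tap2. Each line gives 250 bases that end just before the annotated transcription start, 5′ to 3′ on the gene's strand. Capitals mark the letters AANNGAAA, a core shared by sites of interferon regulatory factors, or GGGNNTTCC, an NF-kappa-B site, each read on either strand. H2-K1 lies at chr17:34000348-34000597 on the minus strand, H2-D1 at chr17:35262844-35263093 on the plus strand, B2m at chr2:122147437-122147686 on the plus strand and Tapbp at chr17:33919228-33919477 on the plus strand.
H2-K1: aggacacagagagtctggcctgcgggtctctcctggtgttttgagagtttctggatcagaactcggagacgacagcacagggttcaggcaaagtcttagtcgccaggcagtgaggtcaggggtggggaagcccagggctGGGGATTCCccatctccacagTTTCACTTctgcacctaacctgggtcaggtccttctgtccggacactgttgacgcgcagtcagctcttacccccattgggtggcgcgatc
H2-D1: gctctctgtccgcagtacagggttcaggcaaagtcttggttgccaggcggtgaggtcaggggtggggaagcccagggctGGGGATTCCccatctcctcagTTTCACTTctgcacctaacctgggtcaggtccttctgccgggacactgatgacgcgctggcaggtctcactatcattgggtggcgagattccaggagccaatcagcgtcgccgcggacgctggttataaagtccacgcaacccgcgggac
B2m: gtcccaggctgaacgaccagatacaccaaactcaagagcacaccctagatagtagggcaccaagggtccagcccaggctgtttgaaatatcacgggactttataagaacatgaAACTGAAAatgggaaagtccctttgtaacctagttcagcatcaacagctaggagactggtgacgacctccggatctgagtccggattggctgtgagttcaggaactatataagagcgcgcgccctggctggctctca
Tapbp: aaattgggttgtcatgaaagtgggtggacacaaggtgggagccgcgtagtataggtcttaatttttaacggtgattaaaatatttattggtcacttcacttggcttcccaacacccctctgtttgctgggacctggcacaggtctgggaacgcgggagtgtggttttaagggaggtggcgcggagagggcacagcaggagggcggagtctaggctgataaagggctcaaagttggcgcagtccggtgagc
The 2 heavy chain sequences share an unbroken run of 47 bases. It begins 141 bases before the H2-K1 start and 201 bases before the H2-D1 start, and it holds the NF-kappa-B letters of both genes. The interferon regulatory factor core begins 90 bases before the start in H2-K1, 150 in H2-D1 and 137 in B2m, and the Tapbp window has no capitals.

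Tap1 and Psmb9 start back to back on opposite strands, 226 bases apart, so they share 1 upstream stretch at chr17:34187331-34187555. It is shown on the plus strand, in the direction of Tap1, because the pair shares these bases and yet differs in level as described further on.
Between Psmb9 and Tap1: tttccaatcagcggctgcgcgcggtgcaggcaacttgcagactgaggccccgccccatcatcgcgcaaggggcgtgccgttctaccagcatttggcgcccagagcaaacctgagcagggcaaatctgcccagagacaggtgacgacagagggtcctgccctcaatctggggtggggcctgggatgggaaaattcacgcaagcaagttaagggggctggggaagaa
It has no capitals, and neither have the windows of Psmb8 and Psmb10. Over the full windows, which run from 250 bases before to 50 after a start, 5 of the 10 member windows hold AANNGAAA, against 23.9% of 32851 windows in the table. These are both windows of H2-K1 and those of H2-D1, B2m and Erap1. The NF-kappa-B letters are in 3 member windows, both of H2-K1 and that of H2-D1, against 5.82% of all windows. The windows of H2-K1 overlap each other and hold the same matches, which are thus counted in each window. Neither the AP-1 letters TGANTCA, in 7.81% of all windows, nor the CRE letters TGACGTCA, in 1.79%, are in any member window. A match says only that the letters are there, and no binding was measured.

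Among the members, c-Fos with DMSO differed from the empty vector mainly at tapasin, which fell, and at H2-D1, which rose. Each comparison uses edgeR's quasi-likelihood test over all genes, and a gene was called at an adjusted p under 0.05. Of 8 tested members 1 rose and 1 fell with c-Fos, where 21.5% of all genes were called higher and 20.7% lower. Under afatinib against DMSO 2 members rose and 1 fell, with 21.2% of all genes called higher and 21.5% lower. Under UO126 against DMSO 1 rose and 1 fell, with 13.9% called higher and 14.7% lower. These member counts lie near the background of each comparison. The libraries are bulk RNA, so fewer cells that express a gene and less of its RNA per cell cannot be told apart. The median log2 fold change of the tested members was 0.14, -0.08 and -0.05 in the 3 comparisons, beside -0.0052, -0.00028 and 0.0021 over all genes. The comparisons with DMSO all use the same 2 DMSO libraries, so a chance deviation there enters each of them.

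**Figure D1:**
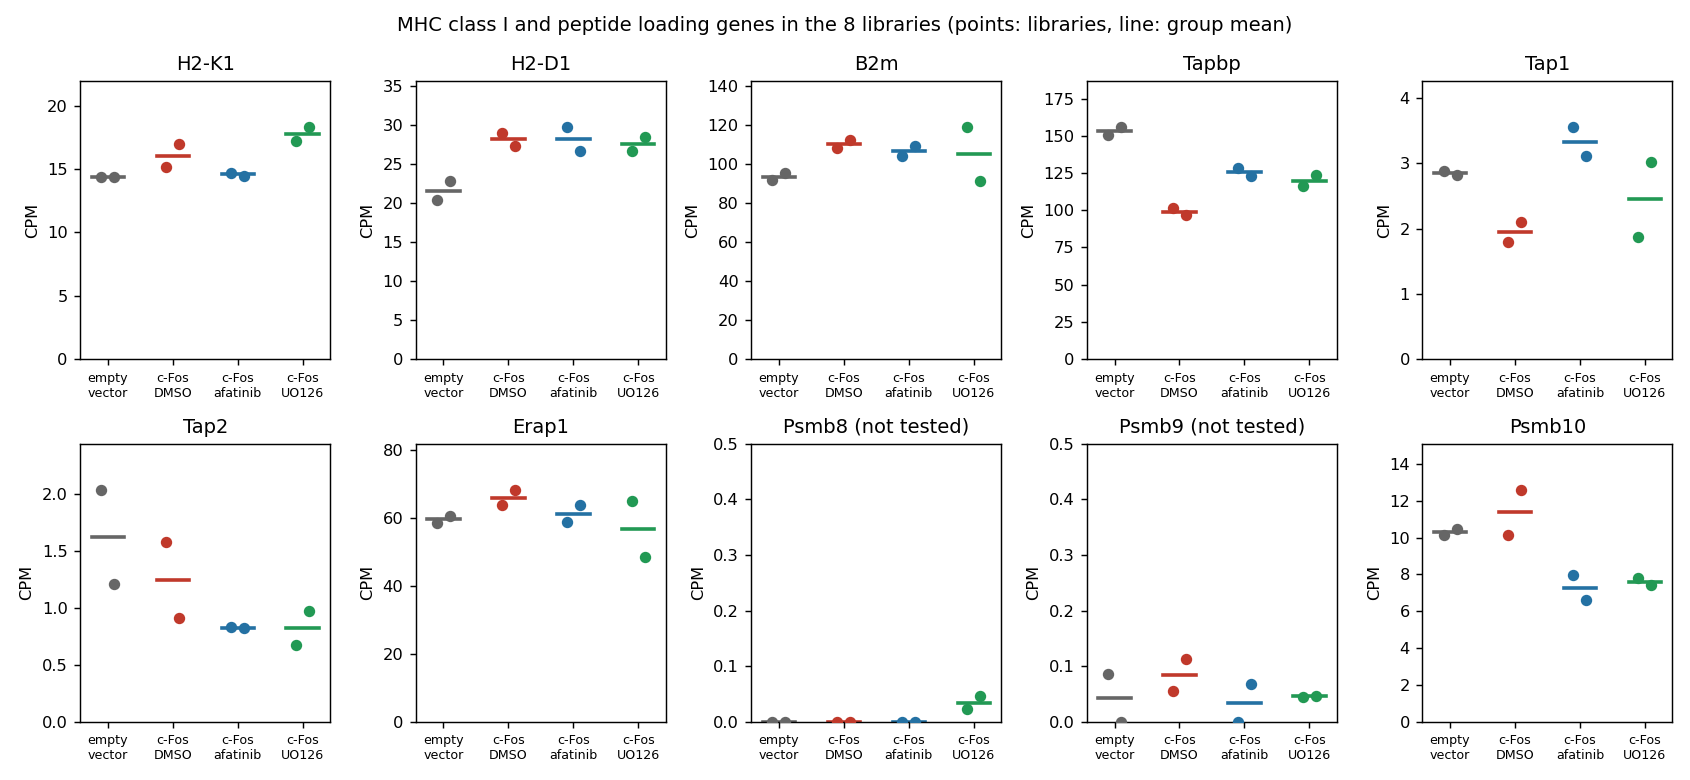
Level of each of the 10 genes in CPM on the vertical axis, with 1 panel per gene, 1 point per library and a line at the mean of each group of 2; the axes start at 0 and differ between panels. Tapbp lies between 150.9 and 155.8 CPM with the empty vector, above all 6 c-Fos libraries, while Psmb8 and Psmb9 stay near 0 in all 8 libraries.

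H2-D1, a classical heavy chain that binds the peptide, stood at 20.4 and 22.8 CPM with the empty vector. It was at 29.0 and 27.4 CPM with c-Fos and DMSO, 29.7 and 26.7 CPM with afatinib, and 26.7 and 28.6 CPM with UO126. Every c-Fos library lay above both empty vector libraries, and the 3 c-Fos groups overlapped. H2-D1 rose 1.31-fold with c-Fos, a difference of 0.38 ± 0.094 on the log2 scale (SE, n = 2 per group; adjusted p 0.0048 by edgeR). Without empty vector replicate 1 this was 0.33 with an adjusted p of 0.052. Against DMSO the log2 fold change of H2-D1 was -0.00 with afatinib (95% interval -0.20 to 0.20) and -0.03 with UO126 (-0.23 to 0.17).

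H2-K1 is another classical heavy chain. Its values were 14.3 and 14.4 CPM with the empty vector, 15.2 and 17.0 CPM with DMSO, 14.7 and 14.5 CPM with afatinib, and 17.2 and 18.3 CPM with UO126. The highest pair was that of UO126 and the lowest that of the empty vector, but the steps were small. None of the 3 comparisons above called it, with log2 fold changes of 0.16 ± 0.098 for c-Fos, -0.13 ± 0.098 for afatinib and 0.15 ± 0.095 for UO126 against DMSO. H2-K1 was called higher with UO126 than with the empty vector, at a log2 fold change of 0.30 ± 0.094 and an adjusted p of 0.022. That adjusted p was 0.093 by DESeq2, 0.077 without empty vector replicate 1, 0.089 without empty vector replicate 2 and 0.053 without UO126 replicate 2.

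B2m encodes beta-2 microglobulin, the light chain that heavy chains need to reach the surface in normal amounts. It was at 91.6 and 95.5 CPM with the empty vector, 108.4 and 112.1 CPM with DMSO, 103.9 and 109.5 CPM with afatinib, and 118.8 and 91.3 CPM with UO126. The UO126 pair holds both the highest and the lowest of the 8 values. With c-Fos and DMSO the log2 fold change was 0.24 ± 0.10 with an adjusted p of 0.083, which misses the threshold. It passed in fits whose spread leaves out a UO126 library, with an adjusted p of 0.0026 without replicate 1 and 0.0013 without replicate 2, and also at 0.0016 where only the 2 groups compared were fitted and at 0.015 without the filter on low counts. Against DMSO, B2m was at -0.05 with afatinib and -0.07 with UO126 on the log2 scale, neither called; the second rests on the UO126 pair, at -0.26 with an adjusted p of 0.013 without replicate 1 and at 0.11 with an adjusted p of 0.29 without replicate 2. Against the empty vector B2m was at 0.19 ± 0.10 with afatinib (adjusted p 0.15) and 0.17 ± 0.10 with UO126 (adjusted p 0.22). Leaving out UO126 replicate 1 or 2 made the first a call, at an adjusted p of 0.0055 and 0.0050, as did a fit of only those groups (0.0070) and no filter (0.049), and leaving out UO126 replicate 2 made the second a call, at 0.37 with an adjusted p of 0.00031, while without UO126 replicate 1 it was -0.02.

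The classical chains and their relatives are close in sequence. Of the runs of 50 bases in the annotated coding transcripts of H2-D1, 13.9% also occur in another gene, most often H2-Q1, and 6.87% of those of H2-K1 do. How reads that match several genes were counted and which MHC haplotype the line has are not stated in the labels or notes, so the split between heavy chain genes is uncertain. Whether each read was counted once, with none dropped, is also not stated. The H2-Q6 and H2-Q8 entries had nearly the same counts in each library, both at 10.5 in UO126 replicate 2, and whether they hold the same reads was not tested. If each read was counted once, with none dropped, the sum over all 33 H2 class I heavy chain entries does not depend on that split. It ran from 74.6 to 78.7 CPM with the empty vector, 82.7 to 85.5 CPM with DMSO, 78.0 to 85.0 CPM with afatinib and 83.0 to 92.3 CPM with UO126. H2-K1 and H2-D1 made up between 46.6% and 53.6% of it.

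Tapasin was the member called in all 3 main comparisons. Tapbp was at 150.9 and 155.8 CPM with the empty vector, 101.5 and 96.8 CPM with DMSO, 128.2 and 123.0 CPM with afatinib, and 116.4 and 123.6 CPM with UO126. The DMSO pair was lowest, the inhibitor pairs lay between it and the empty vector pair, and only the inhibitor pairs overlapped. Tapbp fell by 0.63 ± 0.065 on the log2 scale with c-Fos (adjusted p 4.4e-06), to 0.647 of its level with the empty vector. Against DMSO it rose 1.27-fold with afatinib, by 0.34 ± 0.065 on the log2 scale (adjusted p 0.00085), and 1.21-fold with UO126, by 0.28 ± 0.065 (adjusted p 0.0064). Tested directly against the empty vector, Tapbp was still lower, at -0.29 ± 0.064 on the log2 scale with afatinib (adjusted p 0.0023) and -0.35 ± 0.064 with UO126 (adjusted p 0.00062). Of the settings tried, leaving out DMSO replicate 2 ended the UO126 call of Tapbp, at 0.25 with an adjusted p of 0.070. The annotation places the long noncoding RNA Gm19412 over Tapbp, and it takes 18.9% of the runs of 50 bases in Tapbp transcripts. The kit does not mark strand, so reads of the 2 genes cannot be told apart in the part that they share.

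Tap1 and Tap2 form the transporter that brings peptides to the loading complex, and RNA of both was scarce. Tap1 had 66.5 and 58 counts with the empty vector, 33 and 37 under DMSO, 73 and 68 under afatinib, and 42 and 65.5 under UO126. In CPM these were 2.88 and 2.82, then 1.80 and 2.10, then 3.55 and 3.12, then 1.88 and 3.02. The DMSO pair lay under the empty vector and afatinib pairs, and the UO126 pair reached from near the DMSO pair to above the empty vector pair. Tap1 rose 1.71-fold with afatinib against DMSO, by 0.77 ± 0.24 on the log2 scale with an adjusted p of 0.020. This call was lost by DESeq2 (adjusted p 0.072), without DMSO replicate 1 (0.12) and without afatinib replicate 1 (0.093). With c-Fos the log2 fold change of Tap1 was -0.54 ± 0.25, with an adjusted p of 0.095. It passed, at 0.043, without the filter on low counts and also where only the 2 groups compared were fitted, and at 0.044 without UO126 replicate 1.

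Tap2 was lower still, with 47 and 25 counts with the empty vector, 29 and 16 under DMSO, 17 and 18 under afatinib, and 15 and 21 under UO126. Replicates with the same treatment differed by as much as the groups did, from 2.03 to 1.21 CPM with the empty vector and from 1.58 to 0.909 CPM with DMSO. Tap2 passed in none of the 3 main comparisons. Against the empty vector it was called lower with afatinib, at -0.98 ± 0.35 (adjusted p 0.034), and with UO126, at -1.001 ± 0.35 (adjusted p 0.036). Without empty vector replicate 1 these were -0.52 (adjusted p 0.38) and -0.54 (adjusted p 0.40), and by DESeq2 the adjusted p was 0.15 and 0.16. Without afatinib replicate 1 or 2 the adjusted p was 0.13 and 0.14 for afatinib and 0.054 in both fits for UO126, and without UO126 replicate 1 the UO126 difference was -0.74 with 0.15.

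Erap1, the aminopeptidase that trims peptides to the length class I grooves hold, was at 58.5 and 60.6 CPM with the empty vector and 63.8 and 68.2 CPM with DMSO. It was at 58.8 and 63.8 CPM with afatinib and at 65.0 and 48.5 CPM with UO126, so that the UO126 pair again held the lowest value. No comparison called it: the log2 fold change was 0.15 ± 0.12 with c-Fos, -0.11 ± 0.12 with afatinib and -0.22 ± 0.12 with UO126. UO126 replicate 1 decides the last, since without it Erap1 was lower by -0.43 with an adjusted p of 0.00041. The c-Fos difference was 0.17 with an adjusted p of 0.042 without UO126 replicate 2. Against the empty vector Erap1 was at -0.07 ± 0.12 with UO126, at -0.28 with an adjusted p of 0.012 without UO126 replicate 1, and at 0.15 with an adjusted p of 0.15 without UO126 replicate 2. Erap1 overlaps Cast, the calpain inhibitor calpastatin, in the annotation, and shares 13.7% of its runs of 50 bases with it. Cast rose by 0.61 ± 0.069 on the log2 scale with c-Fos (adjusted p 1.0e-05), and its part in the Erap1 counts was not tested.

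**Figure D2:**
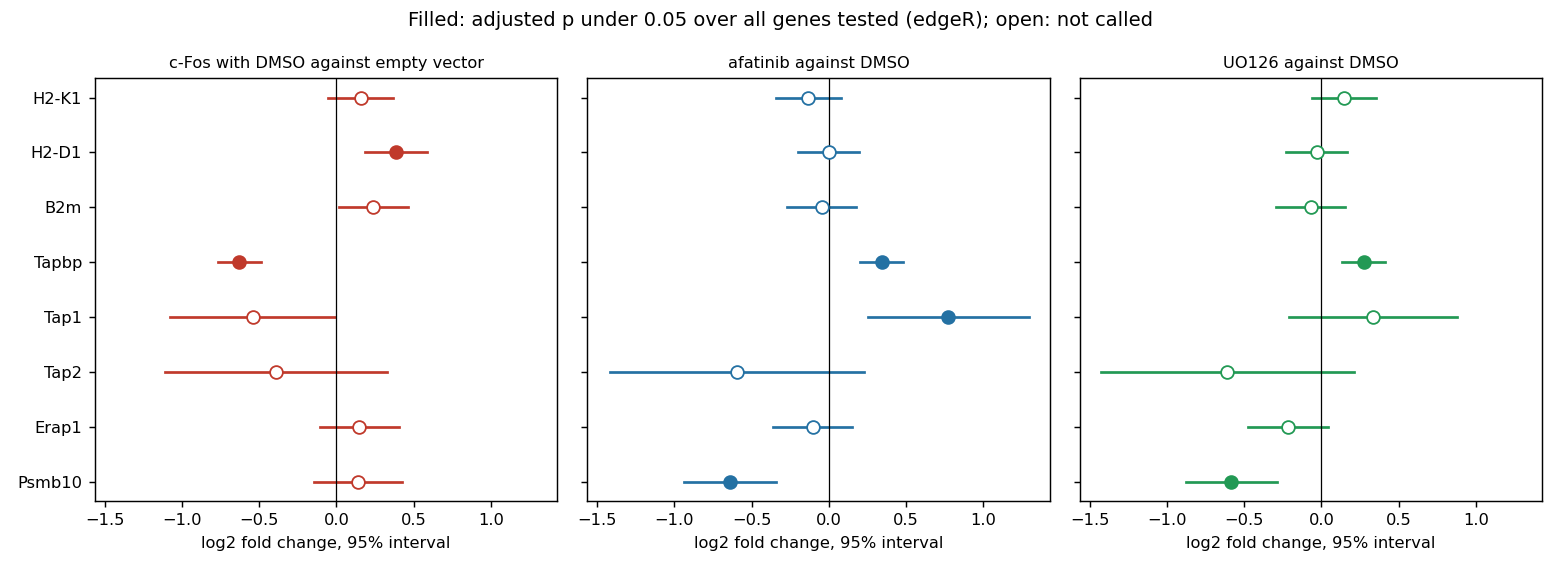
Log2 fold change of the 8 tested members with 95% intervals on the horizontal axis, in c-Fos with DMSO against empty vector, afatinib against DMSO and UO126 against DMSO. Filled points passed an adjusted p under 0.05; Tapbp lies at -0.63 in the first panel and at 0.34 and 0.28 in the others, and Psmb10 at -0.64 and -0.58 under the inhibitors.

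The catalytic subunits of the immunoproteasome differed in level. Psmb8 had 0 counts in 6 libraries and 0.5 and 1 in the UO126 libraries, and Psmb9 had at most 2 counts in a library and 8.5 in all. A count of 3 corresponds to 0.130 to 0.170 CPM here, so levels under that were not detectable at this depth. That limit covers counting error only. Psmb10 was well above it.

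Psmb10 stood at 10.13 and 10.46 CPM with the empty vector and 10.15 and 12.59 CPM with c-Fos and DMSO. It was at 7.96 and 6.60 CPM with afatinib and 7.79 and 7.40 CPM with UO126. All 4 inhibitor libraries lay under all 4 others. Against DMSO, Psmb10 fell by 0.64 ± 0.14 on the log2 scale with afatinib (adjusted p 0.0021) and by 0.58 ± 0.14 with UO126 (adjusted p 0.0061). Without DMSO replicate 2, the higher of that pair, the differences were -0.45 (adjusted p 0.053) and -0.41 (adjusted p 0.11). Against the empty vector Psmb10 was also lower, by -0.50 ± 0.14 with afatinib (adjusted p 0.0086) and -0.44 ± 0.13 with UO126 (adjusted p 0.019). The afatinib call was lost without empty vector replicate 2 (-0.45, adjusted p 0.061) and without afatinib replicate 2 (-0.34, adjusted p 0.13). The UO126 call was lost by DESeq2 (adjusted p 0.084), without empty vector replicate 1 (-0.44, adjusted p 0.084) or 2 (-0.41, adjusted p 0.10) and without UO126 replicate 2 (-0.38, adjusted p 0.062). With c-Fos the log2 fold change of Psmb10 was 0.14 ± 0.13 and was not called.

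Each of these subunits replaces a constitutive one in the same proteasome ring position, Psmb8 for Psmb5, Psmb9 for Psmb6 and Psmb10 for Psmb7. Levels between genes were compared per kilobase of the gene model in the table. Psmb8 made up between 0% and 0.0715% of the sum of its pair, and Psmb9 between 0% and 0.0735%. Psmb10 made up 5.19% and 4.94% of its pair with the empty vector, 4.35% and 5.13% under DMSO, 3.64% and 3.17% under afatinib, and 3.42% and 3.35% under UO126. The constitutive subunits moved little: Psmb7 rose with c-Fos by 0.24 ± 0.065 on the log2 scale (adjusted p 0.0089) from 147 to 174 CPM, and neither Psmb5, between 41.2 and 50.3 CPM, nor Psmb6, between 163 and 199 CPM, was called in the 3 main comparisons.

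Per kilobase, with the empty vector, the order of mean levels was B2m at 109.8 ± 3.3 CPM per kb (SD, n = 2), Tapbp at 56.0 ± 1.3, H2-D1 at 12.5 ± 0.98, Erap1 at 11.2 ± 0.28, H2-K1 at 8.79 ± 0.020, Psmb10 at 8.17 ± 0.19, Tap1 at 0.969 ± 0.015 and Tap2 at 0.656 ± 0.23. Psmb9 and Psmb8 came last, near 0. The steps from H2-D1 to Erap1 and from Tap1 to Tap2 were under 2 SD of the more variable gene of the pair. With UO126 the order of Erap1 and H2-K1 turned, at 10.6 ± 2.2 and 10.8 ± 0.47 CPM per kb, a difference within the spread. In every library tapasin, at 35.4 CPM per kb or more, stood above both transporter subunits, which reached at most 1.21 CPM per kb.

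**Figure D3:**
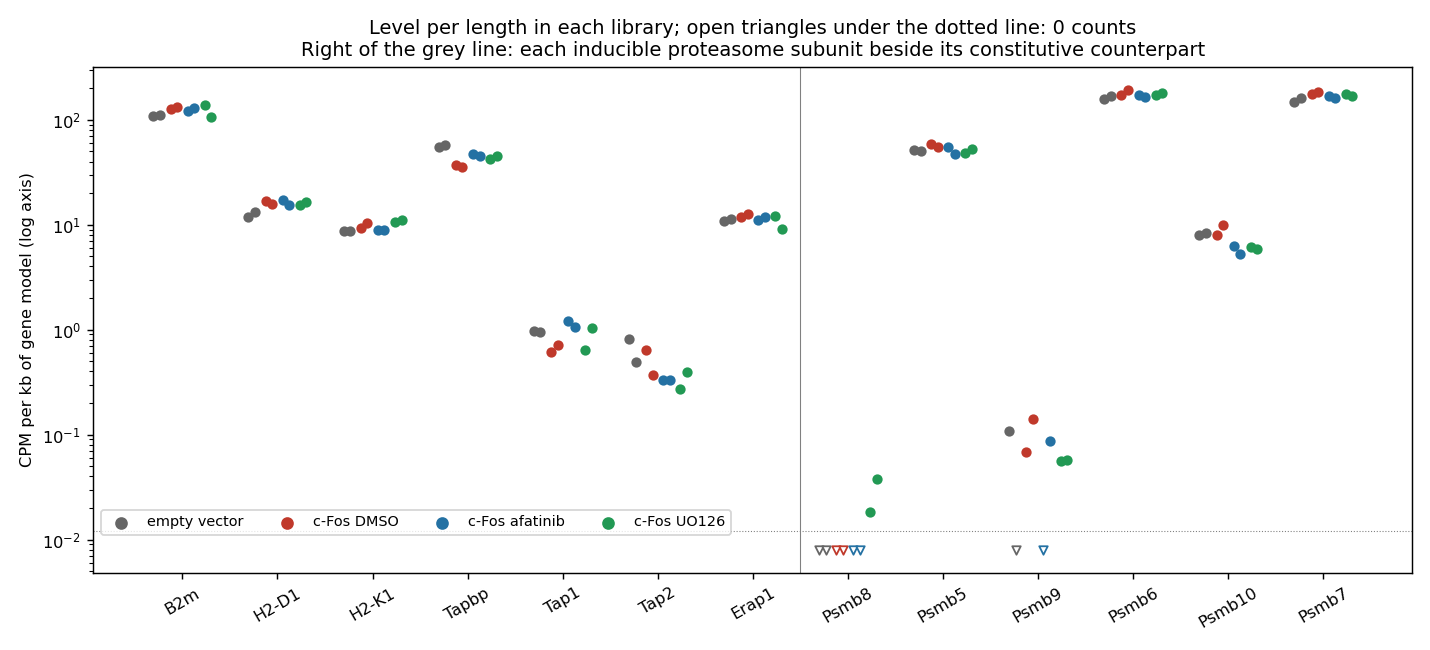
Level in CPM per kb of gene model on a log axis for each library, with 1 point per library coloured by group and open triangles for libraries with 0 counts; to the right of the grey line each immunoproteasome subunit stands beside its constitutive counterpart. B2m and Tapbp are the highest members, with 109.8 and 56.0 CPM per kb on average with the empty vector, and Psmb8 and Psmb9 lie far under Psmb5 and Psmb6.

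The inhibitor groups were also compared with each other, at their different doses of 5 and 10 µM. edgeR called 0 of the 8 tested members, where 7.14% of all genes were called higher with afatinib and 7.14% lower. DESeq2 also called 0, and at an unadjusted p under 0.05 there was 1, H2-K1, at -0.28 ± 0.095 on the log2 scale (adjusted p 0.065). The difference between afatinib and UO126 was 0.07 (95% interval -0.07 to 0.20) for Tapbp and -0.06 (-0.36 to 0.25) for Psmb10. Leaving out UO126 replicate 1 gave calls for B2m, at 0.23 with an adjusted p of 0.039, and for Erap1, at 0.34 with 0.0059, and leaving out UO126 replicate 2 gave one for Tap1, at 0.83 with 0.025. Without UO126 replicate 2 B2m was at -0.15 and Erap1 at -0.08, so for both the sign depended on which UO126 library was kept. Against the empty vector, 1 member was called higher and 3 lower with afatinib, where 21.7% of all genes were called higher and 23.4% lower. With UO126 2 were called higher and 3 lower, where 18.3% and 19.4% of all genes were. H2-D1 was higher in both, at 0.38 ± 0.092 with afatinib (adjusted p 0.0039) and 0.35 ± 0.092 with UO126 (adjusted p 0.0081), the latter with an adjusted p of 0.074 without empty vector replicate 1.

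The tested members did not move as 1 group. Over the 8 libraries the 28 pairwise correlations of their log2 CPM ran from -0.72 to 0.79 with a median of -0.15, and 8 were above 0. These are descriptions over 4 groups that share treatments, with no test. For the mean of the members' standardised log2 CPM, the 5 genes of most similar pattern among 9899 with a mean of at least 5 CPM were Rtraf (Pearson's r 0.96), Rpl35 (0.95), Pitpnb (0.93), Rer1 (0.93) and Cisd3 (0.92), over 8 libraries. That member mean varied little, from -0.19 in UO126 replicate 2 to 0.26 in DMSO replicate 2, and DMSO replicate 1 was at 0.06. The genes were picked as the highest of 9899, so their r values are no test of a shared pattern.

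Other genes that supply or fold class I molecules were called in both directions, as was the tested set at large. Of 22 tested, 5 rose and 3 fell with c-Fos. Against DMSO, 4 rose and 7 fell with afatinib, and 3 rose and 5 fell with UO126. Their medians were 0.08, -0.11 and -0.02 on the log2 scale. Across the 12879 tested genes the c-Fos comparison had 21.5% up and 20.7% down. The matching shares were 21.2% and 21.5% for afatinib, then 13.9% and 14.7% for UO126. Whether the list departs from these shares was not tested. Tapbpl, a tapasin homologue that edits peptides outside the loading complex, ordered the groups as Tapbp did, at 9.78 and 10.97 CPM with the empty vector, 4.95 and 4.83 CPM with DMSO, 8.84 and 8.11 CPM with afatinib, and 7.57 and 8.74 CPM with UO126. Tapbpl fell by 1.08 ± 0.14 on the log2 scale with c-Fos (adjusted p 3.0e-05), then rose by 0.79 ± 0.14 with afatinib (adjusted p 0.00050) and by 0.74 ± 0.14 with UO126 (adjusted p 0.0016). Psme1, a subunit of the PA28 proteasome activator, fell by 0.60 ± 0.12 with c-Fos (adjusted p 0.0011), from 12.1 to 7.95 CPM. Thop1, a cytosolic peptidase that can destroy class I peptides, fell by 0.62 ± 0.073 with afatinib (adjusted p 1.6e-05) and by 0.34 ± 0.072 with UO126 (adjusted p 0.0032).

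Of the 28 other heavy chain and class I-like genes listed, 12 were tested: 2 rose and 3 fell with c-Fos, and 1 rose with each inhibitor. Over all genes, 21.5% were called higher and 20.7% lower with c-Fos, 21.2% and 21.5% with afatinib, and 13.9% and 14.7% with UO126. The list medians were -0.15, 0.02 and 0.11 on the log2 scale. H2-L rose by 0.39 ± 0.12 on the log2 scale with c-Fos (adjusted p 0.018), at 12.8 and 14.5 CPM before and 18.7 and 17.0 CPM after. H2-D1 rose by 0.38 ± 0.094 in the same comparison. Whether the H2-L and H2-D1 entries hold the same reads was not tested, so the H2-L rise may not be a separate one. H2-T23, the nonclassical chain Qa-1 that engages NKG2A on NK cells, fell by 0.51 ± 0.16 (adjusted p 0.020), from 5.38 to 3.77 CPM.

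Among regulators of class I transcription, several factors of interferon signalling and the RFX subunit Rfx5 were lower with c-Fos. Of 22 listed 20 were tested: 1 rose and 6 fell with c-Fos, 5 rose and 5 fell with afatinib, and 5 rose and 2 fell with UO126. Of all genes, 21.5% were called higher and 20.7% lower with c-Fos, 21.2% and 21.5% with afatinib, and 13.9% and 14.7% with UO126. The list medians were near 0, at -0.0030, -0.04 and -0.03. Rfx5, a subunit of the RFX complex that binds class I and class II promoters, was at 19.5 and 19.3 CPM with the empty vector and 8.63 and 7.98 CPM with DMSO. It was at 11.6 and 12.8 CPM with afatinib and 11.9 and 12.9 CPM with UO126. Rfx5 fell by 1.23 ± 0.11 on the log2 scale with c-Fos (adjusted p 8.5e-07) and rose by 0.56 ± 0.11 with afatinib (adjusted p 0.0013) and 0.58 ± 0.11 with UO126 (adjusted p 0.0018). The other RFX subunits, named after their values were seen, did not follow it: Rfxank went from 45.5 to 56.0 CPM with c-Fos, a rise of 0.30 ± 0.075 (adjusted p 0.0058), and Rfxap was at 23.5 and 24.3 CPM.

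Irf9, the DNA-binding subunit of the complex that type I interferons activate, fell by 1.37 ± 0.14 with c-Fos (adjusted p 4.8e-06), from 11.05 to 4.28 CPM. Stat2, another subunit of that complex, fell by 0.38 ± 0.087 with c-Fos (adjusted p 0.0031) and rose by 0.75 ± 0.085 with afatinib (adjusted p 1.3e-05) and 0.81 ± 0.085 with UO126 (adjusted p 1.6e-05). Both inhibitor pairs of Stat2, at 35.1 to 39.0 CPM, lay above the empty vector pair at 26.7 and 28.3 CPM. Irf1, which acts on class I promoters, followed another order: it fell by 0.53 ± 0.081 with c-Fos (adjusted p 0.00016), fell further by 0.68 ± 0.087 with afatinib (adjusted p 3.4e-05) and was at -0.03 ± 0.083 with UO126 (adjusted p 0.80). Irf2 lay between 19.9 and 26.3 CPM in all libraries, with a log2 fold change of -0.15 with c-Fos. Bach2, a transcriptional repressor, fell by 0.89 ± 0.16 with afatinib and by 0.64 ± 0.16 with UO126. Nlrc5, the class I transactivator, had at most 4 counts in a library, and was not tested.

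**Figure D4:**
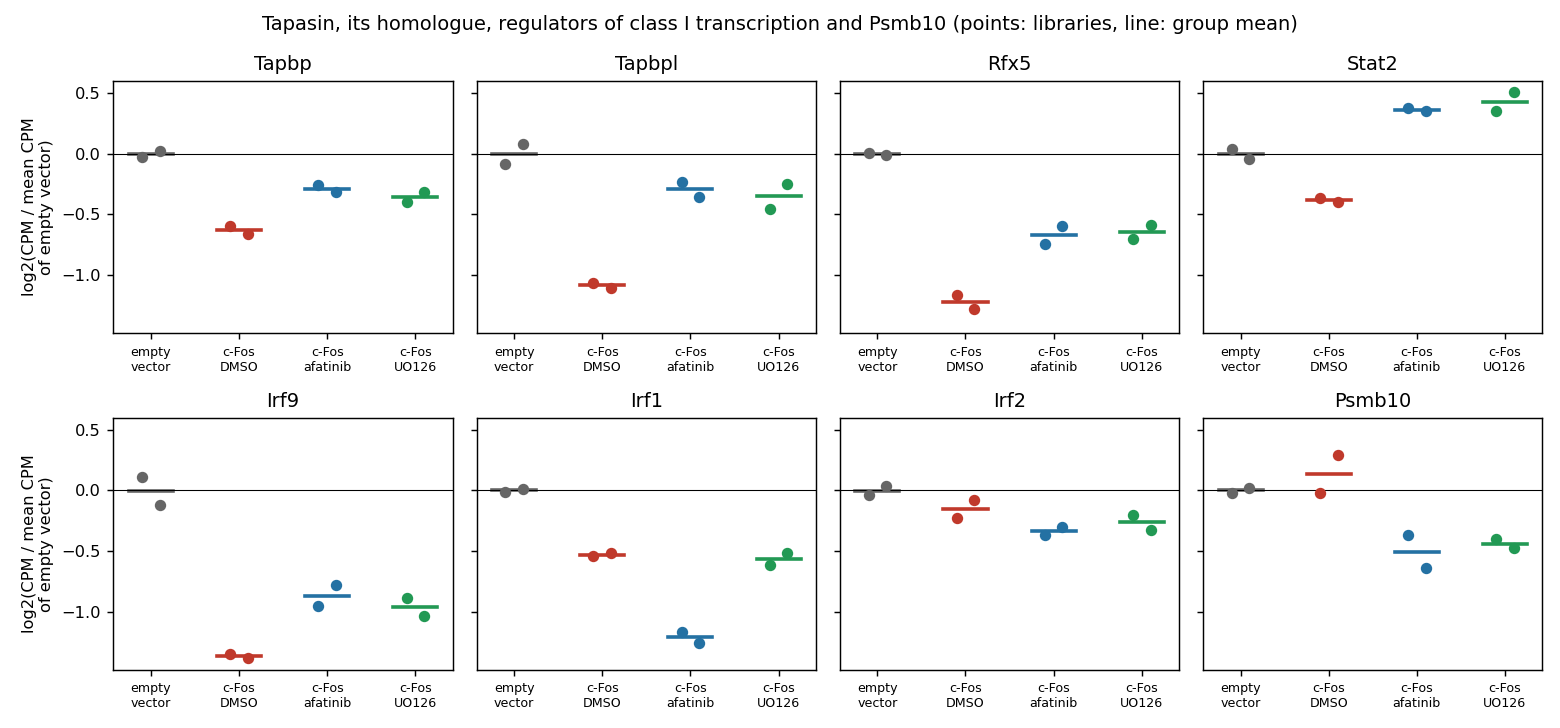
Log2 of the level in each library relative to the mean with the empty vector on the vertical axis, for Tapbp, its homologue Tapbpl, 5 regulators and Psmb10, with 1 point per library and a line at the group mean. Tapbp, Tapbpl, Rfx5, Stat2 and Irf9 are lowest in the DMSO pair, Irf1 is lowest with afatinib, and Psmb10 is lower in the inhibitor pairs than in the others.

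Among genes outside class I that interferon gamma induces, most of those tested fell with c-Fos. Of 26 listed 17 were tested: 1 rose and 13 fell with c-Fos, 2 rose and 3 fell with afatinib, and 4 rose and 1 fell with UO126. Of all genes, 21.5% were called higher and 20.7% lower with c-Fos, 21.2% and 21.5% with afatinib, and 13.9% and 14.7% with UO126. The list's median log2 fold changes were -1.39, 0.40 and 0.42, beside -0.0052, -0.00028 and 0.0021 over all genes. Apart from Irgm1, Xaf1 and Ifi35, no gene of the list reached a mean of 5 CPM in a group, so the medians rest mostly on genes of low level. Igtp, for example, had means of 3.45 CPM with the empty vector and 0.431 CPM with DMSO. The list's difference from the members was not tested. Irgm1, an interferon-induced GTPase, was at 15.93 and 15.97 CPM with the empty vector and 4.95 and 4.23 CPM with DMSO, a fall of 1.80 ± 0.13 on the log2 scale (adjusted p 1.2e-07). Xaf1 fell by 0.86 ± 0.19 (adjusted p 0.0021). Ifi35 fell with afatinib by 0.32 ± 0.12 (adjusted p 0.040).

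Of 15 interferon and JAK signalling genes 11 were tested: 2 rose and 3 fell with c-Fos, 5 rose and 2 fell with afatinib, and 2 fell with UO126. Over all genes, 21.5% were called higher and 20.7% lower with c-Fos, 21.2% and 21.5% with afatinib, and 13.9% and 14.7% with UO126. Whether these signalling genes depart from those shares was not tested. Their medians were -0.05, 0.16 and 0.03 on the log2 scale. Ifngr2, a chain of the interferon gamma receptor, fell by 0.52 ± 0.096 with c-Fos (adjusted p 0.00072), from 22.7 to 15.9 CPM. Ifngr1, the ligand-binding chain, was at 17.9 and 17.1 CPM with the empty vector and 16.1 and 15.4 CPM with DMSO, and rose by 0.29 ± 0.093 with afatinib (adjusted p 0.021). Socs1, a feedback inhibitor of the same receptor, fell by 0.90 ± 0.22 with c-Fos (adjusted p 0.0052), from 5.07 to 2.69 CPM. Against DMSO Socs1 fell further, by 1.35 ± 0.29 with afatinib (adjusted p 0.0020) and by 1.10 ± 0.28 with UO126 (adjusted p 0.0094), to 1.06 and 1.24 CPM. Socs3, another inhibitor of this family, fell by 0.44 ± 0.092 with UO126 (adjusted p 0.0031). Ptpn2, a phosphatase that acts on JAK kinases, fell by 0.30 ± 0.072 with afatinib (adjusted p 0.0049). Ifng itself had 0 counts in all 8 libraries.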

How the data were processed

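RNA of 8 libraries was sequenced after extraction with an RNeasy kit and library construction with the Illumina TruSeq RNA kit, per the labels' protocols. TopHat and HOMER made the counts, per the series design text, and build mm9 and DESeq2 appear in the submitters' processing notes, without versions. The authors deposited estimated counts that are not normalized, 1 entry per gene symbol, in steps of 0.5 (between 47.9% and 49.5% of values above 0 end in 0.5). Of 24909 entries, 26 with symbols turned into dates were left out.

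After rounding, edgeR 4.0.16 (R 4.3.3) filtered genes by expression (count of 10, total of 15), scaled libraries by TMM and ran its robust quasi-likelihood test, with a mean for each of the 4 groups fitted to the 8 libraries together (residual degrees of freedom: 4). Tests were two-sided, with Benjamini-Hochberg adjustment over 12879 genes in each of 6 comparisons. CPM and CPM per kb use the unrounded counts and the gene lengths in the table. Alternatives, including DESeq2 1.42.0, are given at the end. Total counts set the precision, and counting limits leave out other errors.

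The members and gene lists were chosen with earlier results of these data known. All 10 members are named, and from each list the 2 called genes of largest change per main comparison that reach 5 CPM in a group, beside some fixed regulators, of which 1 is not reported here, and the constitutive subunits. The labels name no batch. RefSeq promoter windows are of GRCm38.p6 and carry no measured coordinate. Shared runs of 50 bases were counted in GENCODE M21 transcripts.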

Additional observations from a re-analysis of the deposited data

How the results depend on the processing

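Of 804 fold changes of single members under the alternatives, 724 kept direction and side of the threshold, 32 lost a call, 19 gained one and 29, over 15 results, changed sign. None of those 29 was called in the main result or the alternative. The log2 fold change of H2-D1 with afatinib against DMSO, which is near 0, became 0.0054 with DESeq2 size factors, 0.0057 by DESeq2, 0.0077 without the filter, 0.0091 with a stricter filter, 0.0049 with only the 2 groups and 0.0029 without Rn45s. The other sign changes came with 1 library fewer. Over those fits the log2 fold changes ranged, with c-Fos, from -0.82 to 0.065 for Tap2 and -0.023 to 0.32 for Psmb10. With afatinib against DMSO they ranged from -0.055 to 0.097 for H2-D1 and -0.068 to 0.012 for B2m. With UO126 against DMSO they ranged from -0.077 to 0.034 for H2-D1, -0.26 to 0.11 for B2m and -0.049 to 0.66 for Tap1. Between afatinib and UO126 they ranged from -0.035 to 0.12 for H2-D1, -0.15 to 0.23 for B2m, -0.22 to 0.30 for Tap2, -0.19 to 0.086 for Psmb10 and -0.081 to 0.34 for Erap1. For UO126 against the empty vector they ranged from -0.016 to 0.37 for B2m, -0.57 to 0.12 for Tap1 and -0.28 to 0.15 for Erap1. The replicate numbers did not pair the libraries (correlations of replicate differences from -0.21 to 0.12 across 12879 genes). With the replicate block the members called were as without it, and 2554 genes were called higher and 2478 lower with c-Fos.

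Members called higher with c-Fos were 2 and lower 2 both without the low-count filter and where only the 2 groups compared were fitted. For afatinib against DMSO 1 was called higher by DESeq2, with a stricter filter or at an adjusted p under 0.01. For afatinib against the empty vector 2 were higher without the filter or with only the 2 groups. For UO126 against the empty vector 1 was higher and 1 lower by DESeq2 or at 0.01. Fits with 1 library fewer assume that the lone library of a group varies like the others; over them, members called higher and lower ranged from 0 to 3 and 1 to 2 (c-Fos), 1 to 2 and 0 to 1 (afatinib against DMSO), 0 to 1 and 0 to 3 (UO126 against DMSO), 1 to 2 and 1 to 3 (afatinib against empty vector) and 0 to 2 and 1 to 3 (UO126 against empty vector), and those higher with afatinib than with UO126 from 0 to 2.

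At an adjusted p under 0.01, all genes called for UO126 against DMSO were 1001 higher and 1144 lower, for afatinib against UO126 378 and 408, and lower for UO126 against the empty vector 1593. Fitting only afatinib and UO126 gave 481 and 505. With 1 library fewer, all genes called lower ranged from 1661 to 3085 (c-Fos), 1692 to 3205 (afatinib against DMSO), 968 to 2063 (UO126 against DMSO), 307 to 1102 (afatinib against UO126), 1953 to 3232 (afatinib against empty vector) and 1476 to 2452 (UO126 against empty vector). Those called higher ranged from 913 to 2051 (UO126 against DMSO) and 391 to 1316 (afatinib against UO126). The cause of these shifts was not tested, apart from the fewer libraries and the stricter threshold. Tap2, Psmb8 and Psmb9 are limited by depth.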

Other observations

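Some ligands that cytotoxic cells read beside class I also changed. Of 18 listed NK receptor and checkpoint ligands 16 were in the table and 6 were tested. With c-Fos 2 rose and 2 fell, and against DMSO 3 rose with afatinib and 2 rose with UO126. Among all genes, 21.5% were called higher and 20.7% lower with c-Fos, 21.2% and 21.5% with afatinib, and 13.9% and 14.7% with UO126. The list medians were 0.22, 0.16 and 0.20 on the log2 scale. Pvr, a ligand of DNAM-1 and TIGIT, was at 16.7 CPM in both empty vector libraries and at 46.6 and 41.9 CPM with c-Fos and DMSO, a log2 fold change of 1.41 ± 0.082 (SE) with an adjusted p of 1.8e-08, and it rose by a further 0.25 ± 0.075 with UO126 (adjusted p 0.023). Cd47, which signals to macrophages through SIRPA, rose by 0.58 ± 0.068 with c-Fos (adjusted p 1.5e-05) and by a further 0.30 ± 0.066 with afatinib (adjusted p 0.0026). Nectin2, another ligand of DNAM-1, rose by 0.39 ± 0.14 with afatinib (adjusted p 0.036).

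MHC class II genes were scarcely counted: of 11 listed, 2 passed the filter and 1 of them, H2-DMb1, rose with c-Fos by 0.86 ± 0.32 (adjusted p 0.045) at a level of at most 1.41 CPM in a library; Ciita, the class II transactivator, had at most 1 count in a library. Hfe, the class I-like protein of iron sensing, was named after its values were seen: it stood at 0.390 and 0.413 CPM with the empty vector and between 3.05 and 4.54 CPM in the 6 c-Fos libraries, with a log2 fold change of 3.36 ± 0.26 with c-Fos and DMSO (adjusted p 2.2e-07).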
